A study of Homo sapiens with 9 samples.

Results

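The genes described here are 9 adhesion genes and transcription factors by which epithelial and mesenchymal cell states are usually read: CDH1, CDH2, EPCAM, VIM, SNAI1, SNAI2, ZEB1, ZEB2 and TWIST1. They are a fixed list of names, drawn up with earlier results of these data known, and no value of these libraries entered the rule that picked them. All 9 had an entry among the 26240 genes of the count table, and all 9 passed the filter on low counts, which left 16837 genes to test. RNA sequencing was done on definitive endoderm made in culture from H9, an established human embryonic stem cell line. The study deleted CHD7, which encodes a chromatin remodeller that uses ATP to move nucleosomes, with CRISPR/Cas9, and compared gene expression between the genotypes. The 9 libraries came from homozygous mutant (CHD7-/-), heterozygous mutant (CHD7+/-) and wild-type (CHD7+/+) cells, 3 libraries of each, all in the H9 background. The labels name no clone, culture, day or deleted interval, so a line may be 1 clone. The p-values therefore speak to the variation among these 9 libraries alone, and part of it may be technical.

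Epithelial cells are held together by E-cadherin, the product of CDH1, and EPCAM is a further adhesion molecule of their surface. When cells leave an epithelium in an epithelial to mesenchymal transition (EMT), as cells do at gastrulation when mesoderm and endoderm form, E-cadherin is commonly exchanged for N-cadherin, the product of CDH2, and the intermediate filament protein vimentin (VIM) increases. The zinc finger factors of the Snail family (SNAI1, SNAI2) and the ZEB family (ZEB1, ZEB2) repress CDH1 by binding E-box sequences in its promoter, and the basic helix-loop-helix factor TWIST1 also drives the transition. Definitive endoderm passes through a partial form of this change before it becomes an epithelium again.

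Between 11854173 counts, in homozygous replicate 1, and 37519729 counts, in wild-type replicate 1, were assigned to genes per library. CHD7 itself, on chromosome 8, lay at 43.0 to 56.1 CPM in homozygous, 110.4 to 131 CPM in heterozygous and 189.2 to 195 CPM in wild-type libraries, where CPM stands for read counts scaled to library size. It followed the labels without overlap. All 8 endoderm markers were detected, and their summed level was 6964 to 8100 CPM in homozygous, 8629 to 9664 CPM in heterozygous and 10330 to 11130 CPM in wild-type libraries. CER1 made up most of that sum, with means of 4630, 6124 and 7245 CPM in the same order. The 7 stem cell markers summed to 3133 to 3287, 3245 to 3556 and 3552 to 3687 CPM in the same genotypes. Of these, POU5F1 averaged 90.0, 159 and 69.6 CPM, NANOG 4.22, 13.2 and 10.4 CPM and SOX2 4.39, 13.6 and 4.85 CPM. Nearly all of the sum therefore came from the other stem cell markers. Among the endoderm markers SOX17 was not called in any comparison, and FOXA2 was called lower in homozygous than in wild-type cells (log2 fold change, log2FC, of -0.55, edgeR adjusted p = 0.00303). CER1 was called lower there too (-0.65, edgeR adjusted p = 0.00257). CXCR4, GATA4, GATA6, GSC and EOMES were not called in any comparison. Markers of mesoderm and mesenchyme summed to 22.9 to 31.6 CPM in homozygous, 27.6 to 36.9 CPM in heterozygous and 34.5 to 40.3 CPM in wild-type libraries. Of those 12 markers, 4 had no entry and 4 (MESP1, HAND1, MEOX1 and TCF21) lay under 1 CPM on average. The other lists also rested on few of their genes, with PAX3, TFAP2A, NGFR and SOX9 of neural crest, PAX6, SOX1, LHX2 and ZIC1 of neuroectoderm, TFAP2A, KRT7, ISL1 and VTCN1 of trophoblast and amnion, and COL3A1, LUM and POSTN of fibroblasts all under 1 CPM on average. Markers of neural crest summed to 78.1 to 103, 83.1 to 90.7 and 84.8 to 91.0 CPM, and those of neuroectoderm to 895 to 991, 1007 to 1018 and 1061 to 1083 CPM, nearly all of it OTX2 (means 605, 641 and 672 CPM) and NES (337, 353 and 379.6 CPM). Markers of trophoblast and amnion summed to 23.5 to 31.2, 13.4 to 13.9 and 9.98 to 12.7 CPM, and those of fibroblasts to 75.0 to 126, 104 to 142 and 97.0 to 125 CPM, in the same order of genotypes. The part of these markers in the results on adhesion genes was not tested. In bulk libraries fewer cells of a type and less RNA per cell cannot be told apart.

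Between homozygous and wild-type cells ZEB2 and TWIST1 fell and the other 7 genes did not pass the test. Of all tested genes 7.68% were called in that comparison. In edgeR's test 0 of the 9 genes passed between heterozygous and wild-type cells, where 1.86% of all tested genes did, and 0 between homozygous and heterozygous cells, where 2.21% did. Within the genotypes CDH1 was the least even of the 9: it lay at 10.7 to 12.1 CPM in all 3 heterozygous libraries, but varied several-fold between the homozygous libraries and between the wild-type libraries. Homozygous replicate 3 and wild-type replicates 2 and 3 stood apart from the other 6 libraries in CDH1, EPCAM and VIM. SNAI1 was the most even gene and lay between 20.2 and 22.5 CPM in all 9 libraries. Tests were edgeR's quasi-likelihood test with Benjamini-Hochberg adjustment over the 16837 genes, and a gene was called below an adjusted p of 0.05.

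**Figure D1:**
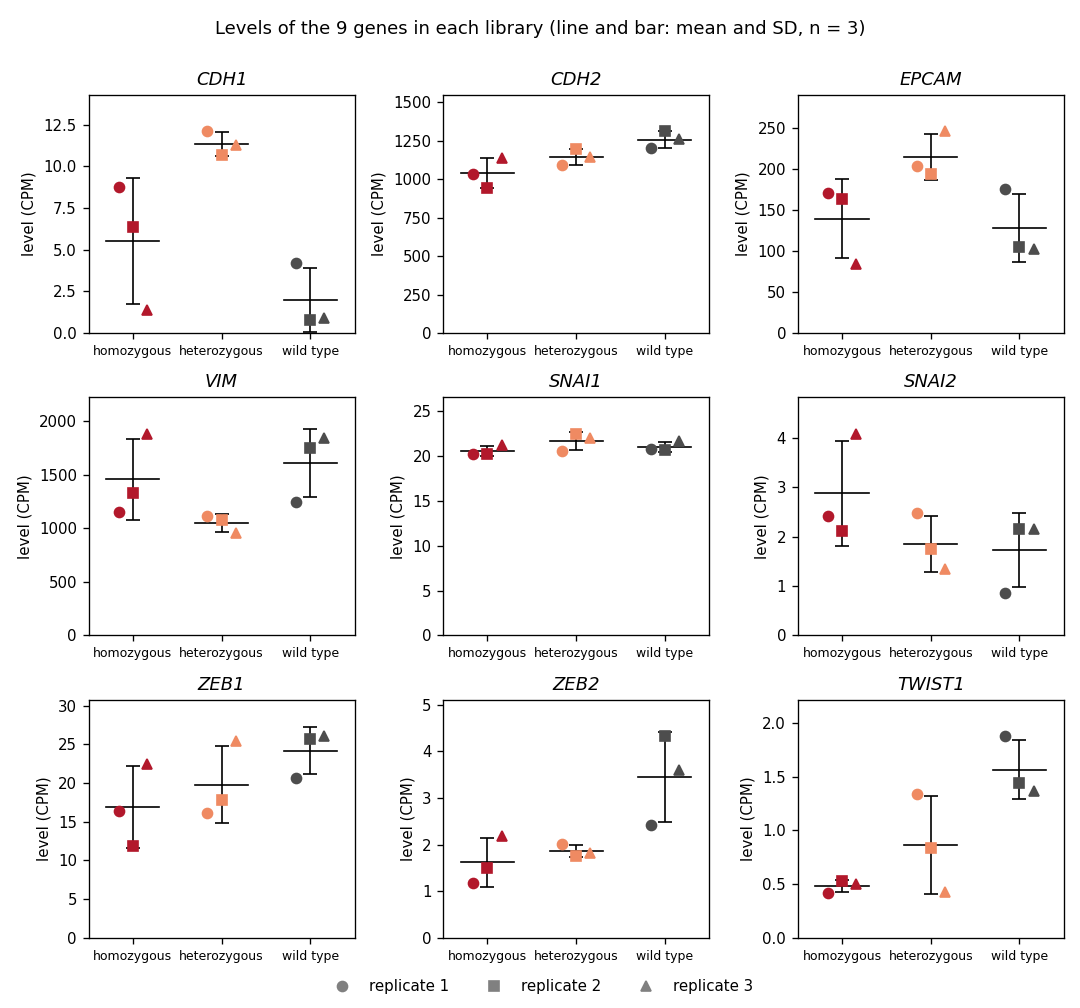
Level of each of the 9 genes in CPM (vertical axis, from 0) in the libraries of the 3 genotypes, with 1 point per library, a line for the mean and a bar for the SD (n = 3). TWIST1 and ZEB2 lie lower in all homozygous than in all wild-type libraries, and CDH1 lies higher in the heterozygous libraries than in all others.

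Per length, vimentin and N-cadherin transcripts dominated the group in each genotype. In wild-type cells VIM averaged 755 CPM per kb of its main transcript, CDH2 291 CPM per kb and EPCAM 74.3 CPM per kb. The transcription factors followed with 12.5 CPM per kb for SNAI1, 4.46 for ZEB1, 0.939 for TWIST1, 0.711 for SNAI2 and 0.362 for ZEB2, and CDH1 lay among the lowest at 0.401 CPM per kb. In the wild-type libraries TWIST1 and SNAI2, SNAI2 and CDH1, and CDH1 and ZEB2 overlapped in this order, and the neighbours above TWIST1 did not. CDH1 averaged 1.13 CPM per kb in homozygous and 2.32 CPM per kb in heterozygous cells. The order is a description of levels, without a test.

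CDH1 (ENSG00000039068), for E-cadherin, is on chromosome 16 (68737225 to 68835548, plus strand, GRCh38). It had 8.78, 6.39 and 1.40 CPM in homozygous replicates 1, 2 and 3, 12.1, 10.7 and 11.3 CPM in the heterozygous replicates, and 4.18, 0.787 and 0.913 CPM in the wild-type replicates. These levels rest on 28 to 193 counts in homozygous, 266 to 372 in heterozygous and 22 to 156 in wild-type libraries. The heterozygous libraries were the highest 3 of the 9 and close to each other, whereas homozygous replicate 3 lay among the wild-type values and wild-type replicate 1 stood above the other wild-type replicates. Heterozygous cells averaged 11.4 ± 0.724 CPM and wild-type cells 1.96 ± 1.93 CPM (SD, n = 3 each), a log2FC of 2.46 (SE 0.58, 95% interval 1.22 to 3.71) that just missed the threshold (adjusted p = 0.0515). That comparison was called without the filter on low counts (0.00863), with limma-voom (0.0316), in a fit of its 6 libraries alone (0.0121), and without homozygous replicate 2 (0.0456), homozygous replicate 3 (0.00642) or wild-type replicate 1 (0.00605), where the log2FC was 3.74. Homozygous cells, at 5.52 ± 3.77 CPM, differed from wild-type cells by a log2FC of 1.39 (SE 0.60, adjusted p = 0.184), with overlapping libraries. This difference was called only without homozygous replicate 3 (log2FC 1.84, adjusted p = 0.0256) or without wild-type replicate 1 (2.66, 0.0207), among the alternatives tried. Every homozygous library lay below every heterozygous one, and that difference was not called (log2FC -1.08, SE 0.55, adjusted p = 0.317).

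CDH2 (ENSG00000170558, chromosome 18, 27950966 to 28177446, minus strand), for N-cadherin, was expressed at a high and even level. It had 1036, 944 and 1141 CPM in homozygous, 1096, 1195 and 1143 CPM in heterozygous and 1203, 1312 and 1261 CPM in wild-type replicates 1, 2 and 3. All mutant libraries lay below all wild-type libraries, by a small margin, and the mutant genotypes overlapped. Its log2FC was -0.28 (SE 0.08, 95% interval -0.46 to -0.09, adjusted p = 0.0680) for homozygous and -0.14 (SE 0.08, adjusted p = 0.526) for heterozygous against wild-type cells. For homozygous cells it was called by DESeq2 (adjusted p = 0.0353) and without homozygous replicate 3 (-0.34, adjusted p = 0.0170). Between the mutants it was -0.14 (95% interval -0.32 to 0.04, adjusted p = 0.395).

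The ratio of CDH2 to CDH1 counts within a library does not depend on how libraries are scaled. It was 118, 148 and 817 in homozygous, 90.5, 112 and 101 in heterozygous and 288, 1667 and 1380.5 in wild-type replicates 1, 2 and 3. The heterozygous ratios were the 3 lowest and hardly differed from each other, while both other genotypes spread over several-fold. On the log2 scale the mean difference from wild-type libraries was -1.84 for homozygous and -3.09 for heterozygous libraries, and homozygous differed from heterozygous libraries by 1.25. Exact two-sided permutation tests over the 3 libraries of each genotype gave p = 0.2, 0.1 and 0.1, where 0.1 is the smallest p that 3 against 3 can give, and 0.24 for each after adjustment over the 6 ratio tests made.

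EPCAM (ENSG00000119888, chromosome 2, 47345158 to 47387601, plus strand) encodes an adhesion molecule of epithelia and of pluripotent stem cells. It had 171, 164 and 84.5 CPM in homozygous, 205, 194 and 247 CPM in heterozygous and 176, 106 and 103 CPM in wild-type replicates 1, 2 and 3. As for CDH1, the heterozygous libraries were the highest 3, and homozygous replicate 3 and wild-type replicates 2 and 3 were the lowest 3. The log2FC of heterozygous against wild-type cells was 0.75 (SE 0.25, 95% interval 0.21 to 1.28, adjusted p = 0.186). It was called in the fit of the 6 libraries alone (0.0459), without homozygous replicate 3 (0.0314) and without wild-type replicate 1 (0.0495). Homozygous cells differed from wild-type cells by 0.12 (SE 0.25, adjusted p = 0.804), and this sign turned on leaving out homozygous replicate 1 (-0.04), homozygous replicate 2 (-0.02) or wild-type replicate 3 (-0.01). Between the mutants it was -0.62 (SE 0.25, adjusted p = 0.209) without overlap.

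VIM (ENSG00000026025, chromosome 10, 17228259 to 17237593, plus strand), for the intermediate filament protein vimentin, showed the reverse order of libraries. It had 1155, 1332 and 1885 CPM in homozygous, 1115, 1077 and 956 CPM in heterozygous and 1248, 1749 and 1842 CPM in wild-type replicates 1, 2 and 3. The heterozygous libraries were the lowest 3, and homozygous replicate 3 and wild-type replicates 2 and 3 the highest 3. Against wild-type cells the log2FC was -0.15 (SE 0.17, adjusted p = 0.648) in homozygous and -0.62 (SE 0.17, 95% interval -0.99 to -0.25, adjusted p = 0.108) in heterozygous cells. Between the mutants it was 0.47 (SE 0.17, adjusted p = 0.176), without overlap. The heterozygous difference was called without the filter on low counts (0.0345), by DESeq2 (0.0207), in the 6 libraries alone (0.0232), and without homozygous replicate 3 (0.0184) or wild-type replicate 1 (0.0364). The antisense gene VIM-AS1 overlaps VIM and had 42 to 180 counts per library. Because no label states the strand setting of the counting, reads of both cannot be told apart. VIM-AS1 averaged 4.33 CPM over the 9 libraries.

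SNAI1 (ENSG00000124216, chromosome 20, 49982999 to 49988886, plus strand), for the Snail repressor that is active at gastrulation, had 20.2, 20.3 and 21.2 CPM in homozygous, 20.5, 22.5 and 22.0 CPM in heterozygous and 20.8, 20.6 and 21.7 CPM in wild-type replicates. All genotypes overlapped. Its log2FC was -0.03 (95% interval -0.23 to 0.17, adjusted p = 0.875) for homozygous and 0.04 (-0.16 to 0.24, adjusted p = 0.900) for heterozygous against wild-type cells, and -0.07 (-0.27 to 0.13, adjusted p = 0.701) between the mutants. The homozygous value was 0.01 with upper quartile scaling. Its retrocopy SNAI1P1 had 1 to 7 counts per library.

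SNAI2 (ENSG00000019549, chromosome 8, 48917604 to 48921740, minus strand), for the paralog known as Slug, was far lower. It had 2.42, 2.12 and 4.09 CPM in homozygous, 2.47, 1.75 and 1.36 CPM in heterozygous and 0.858, 2.16 and 2.16 CPM in wild-type replicates. Homozygous replicate 3 was the highest and wild-type replicate 1 the lowest library, and the genotypes overlapped. Against wild-type cells the log2FC was 0.76 (SE 0.37, 95% interval -0.05 to 1.57, adjusted p = 0.244) in homozygous and 0.15 (SE 0.37, adjusted p = 0.918) in heterozygous cells. Between the mutants it was 0.61 (SE 0.37, adjusted p = 0.393). The heterozygous sign turned without heterozygous replicate 1 (-0.12) or wild-type replicate 1 (-0.20). The ratio of SNAI1 to SNAI2 counts was 8.34, 9.56 and 5.20 in homozygous, 8.29, 12.8 and 16.2 in heterozygous and 24.2, 9.53 and 10.04 in wild-type replicates, with mean log2 differences of -0.83, -0.14 and -0.68 (exact permutation p = 0.2, 0.8 and 0.2) in the same order of comparisons.

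ZEB1 (ENSG00000148516, chromosome 10, 31318495 to 31529814, plus strand), for a repressor of epithelial genes, had 16.4, 11.9 and 22.4 CPM in homozygous, 16.1, 17.8 and 25.4 CPM in heterozygous and 20.7, 25.7 and 26.1 CPM in wild-type replicates 1, 2 and 3. The means, 16.9, 19.8 and 24.2 CPM, ran in the order of the genotypes, but the libraries of all genotypes overlapped. Against wild-type cells the log2FC was -0.52 (SE 0.22, 95% interval -0.99 to -0.05, adjusted p = 0.172) in homozygous and -0.29 (SE 0.21, adjusted p = 0.618) in heterozygous cells, and between the mutants -0.23 (SE 0.22, adjusted p = 0.592). Without homozygous replicate 3, the highest homozygous library, the difference from wild type was -0.79 and was called (adjusted p = 0.0254). The antisense gene ZEB1-AS1 overlaps ZEB1 and had 36 to 123 counts per library, and with the strand setting unknown reads of both cannot be told apart.

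ZEB2 (ENSG00000169554, chromosome 2, 144364364 to 144524583, minus strand), for the ZEB paralog also known as a SMAD-binding factor, was lower in homozygous than in wild-type cells. It had 1.17, 1.49 and 2.19 CPM in homozygous, 2.02, 1.75 and 1.82 CPM in heterozygous and 2.41, 4.33 and 3.61 CPM in wild-type replicates 1, 2 and 3, from 14 to 45, 43 to 62 and 87 to 132 counts. Every mutant library lay below every wild-type library. Homozygous cells averaged 1.62 ± 0.524 CPM and wild-type cells 3.45 ± 0.968 CPM (SD, n = 3 each), a log2FC of -1.06 (SE 0.27, 95% interval -1.65 to -0.47, adjusted p = 0.0328). The call was lost without homozygous replicate 1 (0.104), homozygous replicate 2 (0.127), heterozygous replicate 2 (0.0549), wild-type replicate 2 (0.170) or 3 (0.105), in limma-voom (0.0516), in the 6 libraries alone (0.0613) and against a 1.5-fold change (0.431). The log2FC stayed between -1.32 and -0.86 in the fits that left out 1 library. Heterozygous cells, at 1.86 ± 0.137 CPM, differed from wild-type cells by -0.88 (SE 0.26, adjusted p = 0.134), called only without wild-type replicate 1 (-1.09, adjusted p = 0.0497) among the alternatives tried, and homozygous from heterozygous cells by -0.18 (95% interval -0.80 to 0.44, adjusted p = 0.765). The overlapping gene ZEB2-AS1 had at most 1 count per library.

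TWIST1 (ENSG00000122691, chromosome 7, 19020991 to 19117672, minus strand), for a basic helix-loop-helix factor of mesoderm and neural crest, had the larger of both called changes. It had 0.418, 0.530 and 0.499 CPM in homozygous, 1.33, 0.840 and 0.424 CPM in heterozygous and 1.88, 1.44 and 1.37 CPM in wild-type replicates 1, 2 and 3. These are low levels, resting on 5, 16 and 10 counts in homozygous, 41, 23 and 10 in heterozygous and 70, 44 and 33 in wild-type replicates. All mutant libraries lay below all wild-type libraries, and the heterozygous libraries spread from the homozygous level to just under the wild-type level. Homozygous differed from wild-type cells by a log2FC of -1.66 (SE 0.39, 95% interval -2.51 to -0.82, adjusted p = 0.0207). The call was lost without homozygous replicate 1 (0.0649), homozygous replicate 2 (0.0668), wild-type replicate 1 (0.0731) or wild-type replicate 2 (0.0552), and against a 1.5-fold change (0.145), with log2FC values of -1.75 to -1.51 in the fits that left out 1 library. For heterozygous cells it was -0.83 against wild-type cells (SE 0.34, adjusted p = 0.314), and homozygous differed from heterozygous cells by -0.84 (SE 0.41, adjusted p = 0.303).

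**Figure D2:**
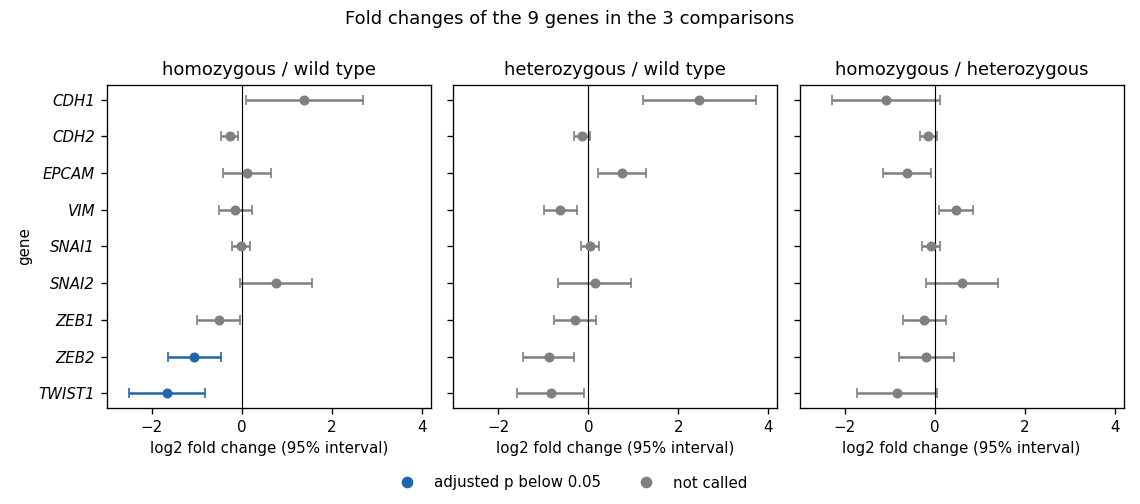
Log2 fold change (log2FC) of the 9 genes (horizontal axis) with its 95% interval for each mutant against wild type and for homozygous against heterozygous cells, from edgeR's fit of 9 libraries. The blue points are ZEB2 at -1.06 and TWIST1 at -1.66, the called genes; CDH1 has the widest interval between heterozygous and wild-type cells, 1.22 to 3.71.

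Counted over the group, 2 of 9 genes were called between homozygous and wild-type cells, where 7.68% of all tested genes were called. Of the 9, 0 were higher and 2 lower in homozygous cells, beside 3.5% and 4.18% of all tested genes. Between heterozygous and wild-type cells 0 of 9 were called, against 1.86% of all tested genes, and between homozygous and heterozygous cells 0 of 9, against 2.21%. At an unadjusted p below 0.05 the 3 comparisons held 5, 5 and 2 of the 9 genes, and DESeq2 called 3, 1 and 0 and limma-voom 1, 1 and 0. On leaving out 1 library the homozygous count of 2 became 0 (without homozygous replicate 1 or 2 or wild-type replicate 2), 1 (without heterozygous replicate 2 or wild-type replicate 3) or 5 (without homozygous replicate 3). The heterozygous count of 0 became 1 without homozygous replicate 2, 3 without homozygous replicate 3 and 4 without wild-type replicate 1. Libraries did not overlap for 3 of 9 genes between homozygous and wild-type cells (28.9% of all tested genes), for 6 of 9 between heterozygous and wild-type cells (22.2%) and for 3 of 9 between the mutants (19.5%). The 6 were CDH1 and EPCAM, higher in heterozygous cells, and CDH2, VIM, ZEB2 and TWIST1, lower in them. The median log2FC of the 9 was -0.15, -0.14 and -0.18, beside 0.01, 0.00 and 0.01 over all tested genes. Both comparisons with wild type share the wild-type libraries. The mesoderm and mesenchyme markers given above summed to 22.9 to 31.6 CPM in homozygous and 34.5 to 40.3 CPM in wild-type libraries. Heterozygous libraries, at 27.6 to 36.9 CPM, overlapped both. The sums of endoderm, stem cell and neuroectoderm markers also lay lower in all homozygous than in all wild-type libraries. That of trophoblast and amnion markers lay higher, at 23.5 to 31.2 CPM in homozygous and 9.98 to 12.7 CPM in wild-type libraries. The sums of neural crest and fibroblast markers overlapped. The part of any of these markers in the falls of ZEB2 and TWIST1 was not tested.

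ZEB2 was called lower in homozygous than in wild-type cells and its paralog ZEB1 was not. Whether the changes of the paralogs differ was not tested. Their log2FC values there were -1.06 (interval -1.65 to -0.47) and -0.52 (-0.99 to -0.05), both negative with overlapping intervals. The promoter windows of both are shown, from 250 bases before to 50 bases after a RefSeq transcript start on GRCh38.p14. They are read 5′ to 3′ along the gene. Capitals mark CAGGTG or its reverse complement CACCTG, the form of the E-box that Snail and ZEB proteins bind. The ZEB1 window is chr10:31318966-31319265 on the plus strand and the ZEB2 window chr2:144520070-144520369 on the minus strand.
ZEB1: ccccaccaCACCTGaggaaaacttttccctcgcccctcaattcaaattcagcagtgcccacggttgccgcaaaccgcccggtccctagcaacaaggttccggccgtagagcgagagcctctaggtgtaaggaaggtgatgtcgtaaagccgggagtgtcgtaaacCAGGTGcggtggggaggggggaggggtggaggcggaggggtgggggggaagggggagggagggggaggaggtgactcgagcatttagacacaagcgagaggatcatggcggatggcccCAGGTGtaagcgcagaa
ZEB2: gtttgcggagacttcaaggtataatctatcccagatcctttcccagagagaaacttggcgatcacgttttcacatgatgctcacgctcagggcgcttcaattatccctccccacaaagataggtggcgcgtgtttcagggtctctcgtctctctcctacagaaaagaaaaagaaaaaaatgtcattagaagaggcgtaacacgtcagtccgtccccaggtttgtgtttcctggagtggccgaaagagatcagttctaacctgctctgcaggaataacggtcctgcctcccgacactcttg
The ZEB1 window held the motif at positions 9, 166 and 284 from its 5′ end, and the ZEB2 window held 0. ZEB1 has 7 such windows in the table, of which 2 held the motif, and ZEB2 has 1. On both strands, 7231 of 35116 windows of that length (20.6%) held it at least once. The match describes the letters in these windows and does not show a bound site, and its part in the levels of ZEB1 or ZEB2 was not tested. Windows of VIM and CDH2, the other genes of the group matched in the RefSeq table, held none.

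Across the libraries CDH1, EPCAM and VIM followed the same split, which was not one between genotypes. Homozygous replicate 3 and wild-type replicates 2 and 3 had the lowest CDH1 levels, the lowest EPCAM levels and the highest VIM levels. The same 3 libraries were lowest for ESRP1, an epithelial splicing regulator, with 17.8 CPM in homozygous replicate 3 and 14.6 and 12.8 CPM in wild-type replicates 2 and 3, against 43.6 to 82.8 CPM in the other libraries. They were also lowest for the tight junction gene CLDN7, with 0.150, 0.0984 and 0.125 CPM against 1.15 to 3.08 CPM, and for SPINT1, a protease inhibitor of epithelia. The stem cell factor POU5F1 was lowest in them too, with 33.5 CPM in homozygous replicate 3 and 56.1 and 57.4 CPM in wild-type replicates 2 and 3, against 95.3 to 193 CPM in the rest. PDGFRA, a receptor of mesenchyme, was highest in them, while CDH2 and SNAI1 did not follow the split. Of all tested genes 945 (5.61%) had these libraries as the lowest 3 and 906 (5.38%) as the highest 3. Among 29 epithelial junction and keratin genes 11 (37.9%) had them lowest, and among 9 epithelial regulators 3 (GRHL2, ESRP1 and ESRP2). Among the 7 stem cell markers these were POU5F1, SOX2 and ZFP42. This order was read off CDH1 and is a description of the libraries, without a test, and the labels give no batch to set beside it.

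**Figure D3:**
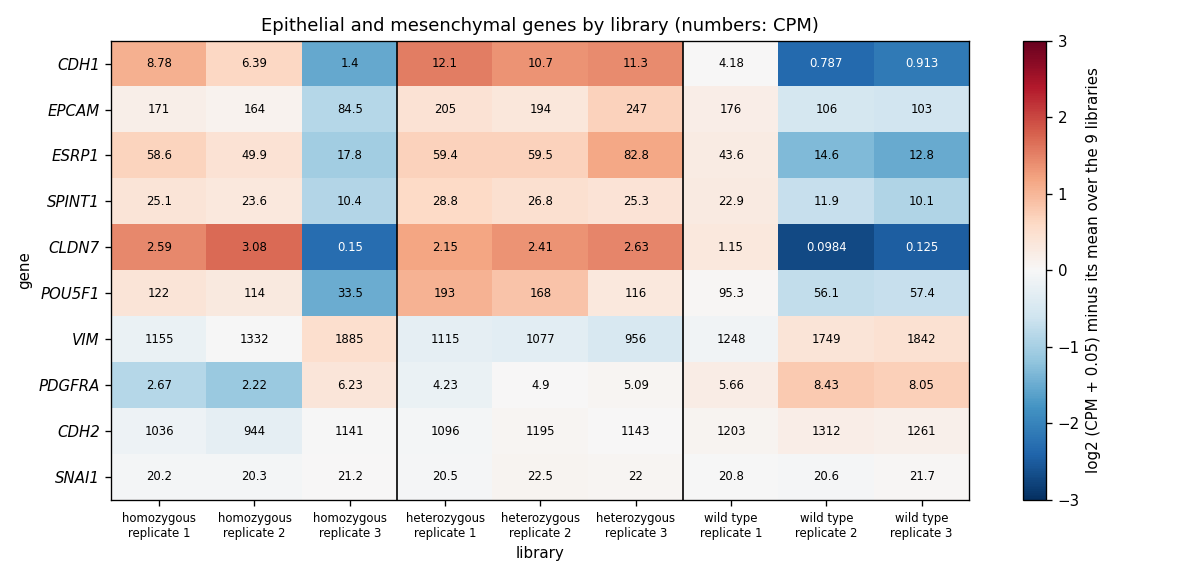
Levels of 10 genes in the 9 libraries, coloured by log2 (CPM + 0.05) minus the gene's mean over the libraries, with the CPM printed in each cell. Homozygous replicate 3 and wild-type replicates 2 and 3 are blue for CDH1 (1.40, 0.787 and 0.913 CPM), EPCAM, ESRP1, SPINT1, CLDN7 and POU5F1 and red for VIM and PDGFRA.

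The other genes of adhesion and EMT were counted in 8 lists, to be read against 7.68%, 1.86% and 2.21% of all tested genes called in homozygous against wild-type, in heterozygous against wild-type and between the mutants. Tested against a 1.5-fold change, the calls named below that held were CDH6, PKP3, ELF3, TNC and LOX in homozygous against wild-type cells and LOX between the mutants, and the others named were lost. Of 14 tested further cadherins 0 rose and 2 fell in homozygous against wild-type cells. These were CDH6 and CDH7, named after their values were seen, both at low levels. They passed the filter on low counts through wild-type libraries, with means of 0.950 and 0.601 CPM against 0.105 and 0.0668 CPM in homozygous cells. A fall was therefore the only change open to them in this comparison. Their calls, and that of CDH6 against a 1.5-fold change, say nothing on the direction of the list. CDH6, a cadherin of kidney and neural crest, had 2, 3 and 1 counts in homozygous and 38, 33 and 18 counts in wild-type replicates (log2FC -3.24, SE 0.61, adjusted p = 0.00564). CDH7, a neural cadherin, had 2, 1 and 0 counts in homozygous and 23, 21 and 12 counts in wild-type replicates (-3.50, SE 0.91, adjusted p = 0.0346), a call lost without homozygous replicate 2 (0.156) or 3 (0.0642), heterozygous replicate 2 (0.0611), or wild-type replicate 1 (0.0765), 2 (0.111) or 3 (0.0746). In the other comparisons 0 of the 14 were called, with 3 and 4 at an unadjusted p below 0.05 and 1 each by DESeq2. The median log2FC of the 14 was 0.01, 0.05 and -0.37 in the 3 comparisons.

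Of 15 adherens junction partners, which anchor cadherins to actin or pair with them, NECTIN1 fell in homozygous cells. This nectin had 31.4, 30.4 and 27.9 CPM in homozygous, 44.7, 48.1 and 37.8 CPM in heterozygous and 48.1, 44.0 and 45.7 CPM in wild-type replicates. The homozygous libraries did not overlap with either other genotype, and the log2FC was -0.62 (SE 0.10, adjusted p = 0.00241) against wild-type and -0.54 (SE 0.10, adjusted p = 0.0163) against heterozygous cells. NECTIN3 also fell against heterozygous cells, at 6.43 ± 1.34 CPM in homozygous and 10.8 ± 0.904 CPM in heterozygous cells (-0.74, SE 0.15, adjusted p = 0.0289). The NECTIN1 call against heterozygous cells was lost without heterozygous replicate 1 (0.0509) or 2 (0.0860), and that of NECTIN3 without homozygous replicate 1 (0.0769) or 2 (0.0979), heterozygous replicate 1 (0.0763) or 2 (0.0901), or wild-type replicate 2 (0.0551) or 3 (0.0536). In the 6 libraries alone neither was called (0.0637 for NECTIN1 and 0.0981 for NECTIN3). In heterozygous against wild-type cells 0 of 15 were called, with 4 at an unadjusted p below 0.05 and 0 by DESeq2. Medians were -0.18, -0.08 and 0.04.

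Of 29 epithelial junction and keratin genes 1 rose and 2 fell in homozygous against wild-type cells, and 1 rose in heterozygous cells. PKP3, for the desmosome protein plakophilin 3, rose in both. It had 7.35, 5.56 and 3.09 CPM in homozygous, 3.61, 4.64 and 4.62 CPM in heterozygous and 1.66, 0.492 and 0.291 CPM in wild-type replicates. Both mutant genotypes lay above all wild-type libraries, with log2FC values of 2.59 (SE 0.46, adjusted p = 0.00398) and 2.30 (SE 0.46, adjusted p = 0.0238), of which the heterozygous call was lost without heterozygous replicate 2 (0.104) or 3 (0.0565) or wild-type replicate 2 (0.134) or 3 (0.0910). OCLN, for the tight junction protein occludin, fell in homozygous cells, at 6.83 ± 1.68 CPM, against heterozygous cells at 11.6 ± 1.40 CPM (-0.79, adjusted p = 0.0375) and wild-type cells at 10.5 ± 1.36 CPM (-0.65, adjusted p = 0.0441). PARD3, a cell polarity gene, fell by 0.36 on the log2 scale in homozygous against wild-type cells (adjusted p = 0.0124). The OCLN call against wild type was lost without homozygous replicate 2 (0.162) or 3 (0.0789), heterozygous replicate 2 (0.0765) or wild-type replicate 1 (0.138), 2 (0.0727) or 3 (0.113), with upper quartile scaling (0.0552) and in the 6 libraries alone (0.0668). Against heterozygous cells it was lost without homozygous replicate 2 (0.130) or 3 (0.0821), heterozygous replicate 2 (0.130) or 3 (0.106), or wild-type replicate 2 (0.0593) or 3 (0.0690), and in the 6 libraries alone (0.102). The PARD3 call was lost without any of wild-type replicates 1 (0.0531), 2 (0.0543) and 3 (0.0506). At an unadjusted p below 0.05 the 3 comparisons held 11, 11 and 5 of the 29, and DESeq2 called 5, 4 and 1 and limma-voom 3, 2 and 1. Heterozygous and wild-type libraries did not overlap for 9 genes that were higher and 2 that were lower in heterozygous cells. Over all tested genes 22.2% did not overlap there, in either direction. Medians of the 29 were 0.10, 0.17 and -0.20.

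Among 9 epithelial state regulators ELF3 rose and KLF5 fell in homozygous against wild-type cells. ELF3, an ETS factor of epithelia, had 7.52, 8.34 and 5.38 CPM in homozygous, 4.79, 4.68 and 4.75 CPM in heterozygous and 2.95, 1.94 and 2.28 CPM in wild-type replicates. The genotypes did not overlap, and the log2FC was 1.56 (SE 0.21, adjusted p = 0.000508) for homozygous and 0.98 (SE 0.21, adjusted p = 0.0326) for heterozygous against wild-type cells. The heterozygous call was lost without homozygous replicate 1 (0.0501), heterozygous replicate 1 (0.103), 2 (0.119) or 3 (0.0660) or wild-type replicate 2 (0.185) or 3 (0.158). KLF5, a zinc finger factor of stem cells and epithelia, averaged 17.8 ± 2.37 CPM in homozygous, 27.5 ± 4.12 CPM in heterozygous and 26.4 ± 1.82 CPM in wild-type cells, with log2FC values of homozygous cells of -0.57 against wild-type (adjusted p = 0.0192) and -0.62 against heterozygous cells (adjusted p = 0.0294). The KLF5 call against wild type was lost without homozygous replicate 1 (0.0739) or 2 (0.0771) or wild-type replicate 1 (0.0721) or 2 (0.0684), and that against heterozygous cells without homozygous replicate 1 (0.0818) or 2 (0.0964), heterozygous replicate 2 (0.0860) or 3 (0.0814) or wild-type replicate 2 (0.0584) or 3 (0.0523) or in the 6 libraries alone (0.0971). At an unadjusted p below 0.05 the 3 comparisons held 2, 4 and 2 of the 9, and DESeq2 and limma-voom each called 2, 1 and 1. Medians of the 9 were 0.22, 0.34 and -0.30.

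Of 12 further EMT transcription factors TCF4 and HMGA2 fell in homozygous against wild-type cells and 0 rose. TCF4, a basic helix-loop-helix partner of TWIST1, averaged 28.4 ± 4.55 CPM in homozygous and 39.2 ± 0.289 CPM in wild-type cells (-0.47, SE 0.12, adjusted p = 0.0263). HMGA2, an architectural chromatin protein, averaged 306 ± 68.0 CPM in homozygous and 429 ± 17.3 CPM in wild-type cells (-0.49, SE 0.13, adjusted p = 0.0333). The TCF4 call was lost without homozygous replicate 1 (0.0689) or 2 (0.0810) or wild-type replicate 1 (0.0702), 2 (0.0964) or 3 (0.0934). The HMGA2 call was lost without homozygous replicate 1 (0.121) or 2 (0.0867), heterozygous replicate 2 (0.0608) or wild-type replicate 1 (0.0604), 2 (0.135) or 3 (0.105), and in the 6 libraries alone (0.0612). In the other comparisons 0 of 12 were called, with 2 in each at an unadjusted p below 0.05 and 0 by DESeq2. Of 13 corepressors through which Snail and ZEB factors act, such as CTBP1, HDAC1 and KDM1A, edgeR, DESeq2 and limma-voom each called 0 in all 3 comparisons, with 1, 2 and 3 at an unadjusted p below 0.05. Medians were -0.06, -0.03 and 0.01 for the factors and 0.02, 0.11 and 0.01 for the corepressors.

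Of 29 mesenchymal EMT genes 2 rose and 6 fell in homozygous against wild-type cells (27.6% called), genes of the extracellular matrix among the falls. TNC, for the matrix glycoprotein tenascin C, had 142, 134 and 154 CPM in homozygous, 273, 321 and 232 CPM in heterozygous and 401, 384 and 386 CPM in wild-type replicates. The 3 genotypes did not overlap, and TNC fell against wild type in homozygous (-1.44, SE 0.11, adjusted p = 5.30e-06) and heterozygous cells (-0.50, SE 0.11, adjusted p = 0.0318), and between the mutants (-0.94, SE 0.11, adjusted p = 0.000344). LOX, for a collagen cross-linking enzyme, averaged 1.27 ± 0.164 CPM in homozygous, 6.82 ± 0.202 CPM in heterozygous and 10.96 ± 3.82 CPM in wild-type cells, and fell in homozygous against wild-type (-3.07, SE 0.25, adjusted p = 1.37e-05) and heterozygous cells (-2.38, SE 0.26, adjusted p = 0.00022). COL1A2, for a collagen chain, fell against wild type (-0.89, adjusted p = 0.00155), and LGALS1, for galectin 1, rose (0.91, adjusted p = 0.00367). TAGLN, for the actin-binding protein transgelin, fell in heterozygous cells at 338 ± 30.4 CPM, against wild-type cells at 600.1 ± 158 CPM (-0.83, adjusted p = 0.0326). The heterozygous TNC call was lost without homozygous replicate 1 (0.0521), heterozygous replicate 1 (0.110) or 3 (0.0582) or wild-type replicate 1 (0.0731), 2 (0.125) or 3 (0.126), and the TAGLN call without heterozygous replicate 1 (0.0643), 2 (0.156) or 3 (0.102) or wild-type replicate 2 (0.168) or 3 (0.178). At an unadjusted p below 0.05 the 3 comparisons held 13, 13 and 7 of the 29, and DESeq2 called 12, 3 and 4 and limma-voom 8, 2 and 2. Heterozygous and wild-type libraries did not overlap for 5 genes that were higher and 9 that were lower in heterozygous cells. Over all tested genes 22.2% did not overlap there, in either direction. Medians were -0.07, -0.05 and -0.07.

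Of 18 EMT inducing signals 2 rose and 3 fell in homozygous against wild-type cells (27.8% called). TGFBR2, for a TGF-beta receptor, averaged 8.16 ± 0.694 CPM in homozygous and 14.1 ± 1.09 CPM in wild-type cells (-0.80, SE 0.15, adjusted p = 0.00486). SMAD3, which carries the TGF-beta and Nodal signal to the nucleus, fell by 0.72 on the log2 scale (adjusted p = 0.0274), and HIF1A, the oxygen-regulated factor, by 0.49 (adjusted p = 0.0136). FGFR1 rose by 0.35 on the log2 scale (adjusted p = 0.0382), as did the ligand gene TGFB3, named after its values were seen, by 1.32 (adjusted p = 0.0422). The calls were lost for HIF1A without wild-type replicate 2 (0.0707) or 3 (0.0521), and for FGFR1 without homozygous replicate 1 (0.119) or wild-type replicate 1 (0.0751), 2 (0.167) or 3 (0.128). The SMAD3 call was lost without homozygous replicate 1 (0.110) or 2 (0.0927), heterozygous replicate 2 (0.0502) or wild-type replicate 1 (0.0518), 2 (0.1005) or 3 (0.0924). The TGFB3 call was lost without homozygous replicate 1 (0.0930), 2 (0.0768) or 3 (0.0627), heterozygous replicate 1 (0.0546) or wild-type replicate 1 (0.122), 2 (0.0986) or 3 (0.0581). In the other comparisons 0 of 18 were called, with 6 between heterozygous and wild-type and 5 between homozygous and heterozygous cells at an unadjusted p below 0.05, and DESeq2 called 0 and 3. Medians were -0.11, -0.07 and -0.03.

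**Figure D4:**
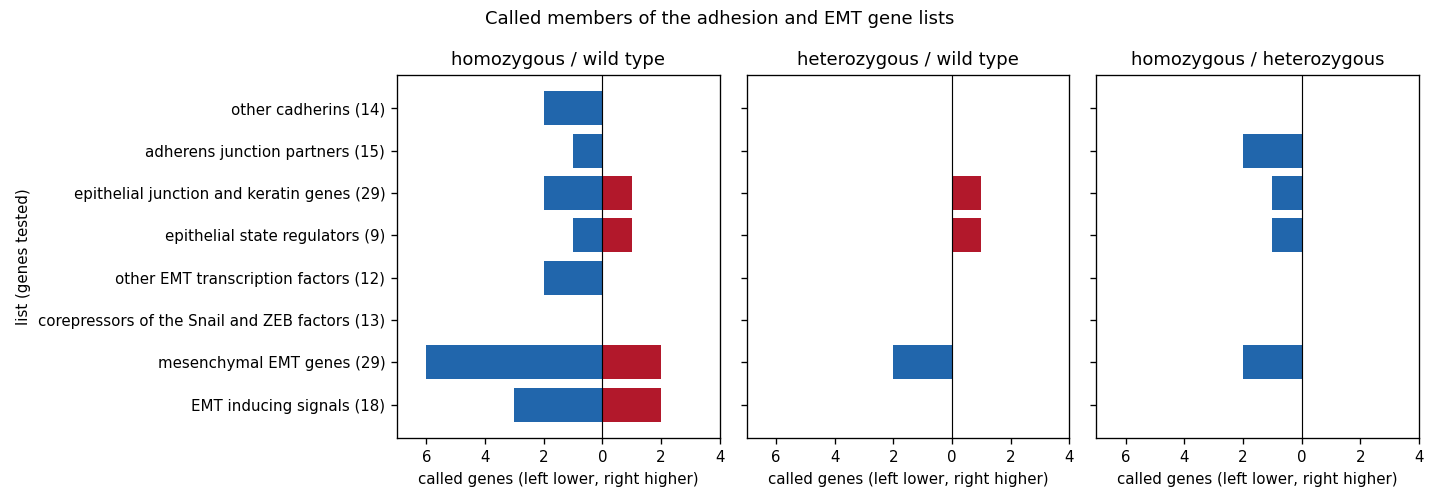
Number of called genes (horizontal axis, lower to the left and higher to the right of 0) in 8 lists of adhesion and EMT genes, with the number tested in parentheses, for the 3 comparisons. The longest bar is the mesenchymal list in homozygous against wild-type cells, with 6 lower and 2 higher of 29.

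The genes whose levels over the 9 libraries were most like those of the called factors were picked by correlation. As both factors were called lower in homozygous than in wild-type cells, these genes were lower there on average by the way they were picked. For ZEB2 they were CXCL12 (Pearson r 0.953), DDIT4L (0.950) and FAM13C (0.940), and for TWIST1 they were ADM (0.936), PDK1 (0.904) and ENTREP1 (0.885), each over 9 libraries and among 263 candidate genes. CXCL12, a chemokine, had 8.36, 8.97 and 19.9 CPM in homozygous, 18.4, 20.1 and 17.7 CPM in heterozygous and 26.2, 43.9 and 44.8 CPM in wild-type replicates. ADM, for the peptide hormone adrenomedullin, had 19.1, 21.2 and 24.2 CPM in homozygous, 36.9, 34.8 and 27.8 CPM in heterozygous and 55.7, 52.5 and 51.0 CPM in wild-type replicates. The points of each correlation are the same 9 libraries and their genotypes, so it describes likeness of pattern and carries no test.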

How the data were processed

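Total RNA of 9 libraries of H9-derived definitive endoderm was sequenced (Illumina NovaSeq), per the labels' protocols. The authors deposited whole-number read counts per Ensembl gene, not normalized and not pooled. Per the submitters' processing notes, the build was hg38 and the tools included HTSeq, HISAT2, Trimmomatic, FastQC and SAMtools. For their versions, the annotation release and the strand setting, nothing was given in the sources used here. Reads carry no molecular identifiers, and library totals limit the precision of low genes such as TWIST1.

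In R 4.3.3 with edgeR 4.0.16, filterByExpr by genotype removed 9403 genes, and TMM factors were 0.973 to 1.01, and 1 quasi-likelihood fit of the 9 libraries had genotype as its factor (common biological coefficient of variation 0.121). Tests were two-sided with Benjamini-Hochberg adjustment over all tested genes. The SE is the size of the log2 fold change divided by the square root of F, and the 95% interval is not adjusted for multiple tests. The test was also run on counts simulated without effects that genes of a library share, and no conclusion is drawn from that run here. No pair of replicates agreed within sampling noise (chi-square per degree of freedom 2.70 to 34.3). Symbols and positions come from GENCODE release 29 (GRCh38), found for 25250 and 25209 of 26240 genes, as do main transcript lengths.

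The members and lists were chosen with earlier results of these data known. Named genes are CHD7, the 9 members, 4 endoderm or stem cell markers, up to 4 called genes of each list and comparison that reach 1 CPM on average in a genotype, by smallest adjusted p, and for each called member the 3 genes with the highest Pearson correlation of log2 CPM among genes with a mean of at least 5 CPM and an SD of at least 0.5. CDH6, CDH7, TGFB3 and the genes of the library pattern were named after their values were seen. Ratios used a pseudocount of 0.5 counts. Alternatives were other scalings and filters, DESeq2 1.42.0, limma-voom (limma 3.58.1), 6 libraries alone, glmTreat at 1.5-fold, a replicate block and leaving out each library.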

Additional observations from a re-analysis of the deposited data

How the results depend on the processing

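Against wild type, 1293 genes were called in homozygous and 313 in heterozygous cells, and 372 between the mutants. Tested against a 1.5-fold change these were 281, 89 and 67, and ZEB2 (-1.06) and TWIST1 (-1.66) were then no longer called in homozygous cells. DESeq2 called 560 genes in heterozygous against wild-type and 819 in homozygous against heterozygous cells, and it called CDH2 (homozygous, -0.28) and VIM (heterozygous, -0.62) against wild type. In fits of the 6 libraries of a comparison alone these counts were 604 and 177. There CDH1 (2.46), EPCAM (0.75) and VIM (-0.62) were called in heterozygous against wild-type cells, and ZEB2 (-1.06) was not in homozygous ones. Limma-voom called CDH1 in heterozygous against wild-type cells (2.83) and not ZEB2 in homozygous ones (-1.02). Without the filter on low counts CDH1 (2.46) and VIM (-0.62) were called in heterozygous against wild-type cells. Upper quartile scaling turned SNAI1 to 0.013 in homozygous against wild-type cells. The cause of these shifts was not tested.

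Deviations of same-numbered libraries from their genotype means had correlations of both signs. These were 0.47, -0.42 and 0.33 between homozygous and wild-type, 0.11, -0.12 and -0.10 between heterozygous and wild-type, and -0.26, 0.059 and 0.39 between homozygous and heterozygous replicates 1, 2 and 3. Differently numbered libraries reached -0.61 (homozygous replicate 3 with wild-type replicate 1) and 0.68 (homozygous replicate 2 with heterozygous replicate 1). Libraries of different genotypes thus shared deviations that the replicate numbers did not follow, and the numbers were not taken as pairs. With the replicate number as a block, the heterozygous comparison with wild type had 492 called genes, and CDH1 (heterozygous, 2.78) and ZEB1 (homozygous, -0.56) were called against wild type, as was POU5F1 in heterozygous cells (edgeR adjusted p = 0.0152).

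Leaving out 1 library moved the count of called genes to 651 to 2118 for homozygous and 130 to 624 for heterozygous cells against wild type, and to 141 to 377 between the mutants. In homozygous against wild-type cells the log2 fold changes then ranged from 0.98 to 2.66 for CDH1, -0.34 to -0.21 for CDH2, -0.042 to 0.42 for EPCAM, -0.79 to -0.30 for ZEB1, -1.32 to -0.86 for ZEB2 and -1.75 to -1.51 for TWIST1. In heterozygous against wild-type cells they ranged from 2.09 to 3.74 for CDH1, 0.61 to 1.04 for EPCAM, -0.78 to -0.51 for VIM, -1.09 to -0.67 for ZEB2 and -0.20 to 0.36 for SNAI2, and the log2 ratio of SNAI1 to SNAI2 differed by -0.38 to 0.29. SOX17 in homozygous against heterozygous cells ranged from -0.034 to 0.081. The number of called genes ranged, in homozygous against wild-type cells, from 0 to 5 of the 9 genes, 1 to 3 of the other cadherins, 1 to 4 of the adherens partners, 1 to 7 of the epithelial junction genes, 1 to 3 of the epithelial regulators, 0 to 3 of the other factors, 5 to 11 of the mesenchymal genes and 1 to 5 of the signals. In heterozygous against wild-type cells these ranges were 0 to 4, 0 to 2, 0 to 1, 0 to 6, 0 to 4, 0 to 1, 0 to 5 and 0 to 1. Between the mutants at most 2 genes of a list were called, except 2 to 4 of the mesenchymal genes, and 0 of the 9. Of the corepressors 0 were called in each of these fits.

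Low counts limit TWIST1 (5 to 70 counts a library), ZEB2 (14 to 132), SNAI2 (29 to 82) and CDH1 (22 to 372), and 3 libraries a genotype cannot reach an exact p below 0.1.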

Other observations

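MIR200CHG, the host transcript of a miR-200 cluster that targets ZEB1 and ZEB2, did not pass the filter on low counts. It had 5, 13 and 1 counts in homozygous, 2, 2 and 1 counts in heterozygous and 1, 0 and 0 counts in wild-type replicates 1, 2 and 3. The counts are too few to compare the genotypes, and the mature miRNAs were not measured. CDH11, a cadherin of mesenchyme, averaged 0.515 ± 0.173 CPM in homozygous, 1.23 ± 0.600 CPM in heterozygous and 1.38 ± 0.186 CPM in wild-type cells (SD, n = 3 each), and was not called by edgeR between homozygous and wild-type cells (log2 fold change -1.37, adjusted p = 0.0668). Among the stem cell markers, NANOG averaged 4.22 ± 2.43 CPM in homozygous, 13.2 ± 4.26 CPM in heterozygous and 10.4 ± 1.79 CPM in wild-type cells (SD, n = 3 each). It was called lower in homozygous than in heterozygous cells by edgeR (log2 fold change -1.65, adjusted p = 0.0401). That call was lost without homozygous replicate 1 (0.0699), heterozygous replicate 1 (0.0876) or 2 (0.139), or wild-type replicate 1 (0.0509), 2 (0.0631) or 3 (0.0659), in the 6 libraries alone (0.105) and against a 1.5-fold change (0.316). Between homozygous and wild-type cells NANOG did not overlap and was not called by edgeR (-1.30, adjusted p = 0.0547). That difference was called by limma-voom (0.0478), without the filter on low counts (0.0177) and with the replicate block (0.00623). It was also called without homozygous replicate 2 (0.0328) or 3 (0.0448) or heterozygous replicate 3 (0.0365). POU5F1 averaged 159 ± 39.4 CPM in heterozygous and 69.6 ± 22.3 CPM in wild-type cells and was not called by edgeR (1.19, adjusted p = 0.158), but was called without homozygous replicate 3 (0.00585) and in the 6 libraries alone (0.0118).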
